A study of Mus musculus with 13 samples.

Results

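The collagen gene family was examined in bulk RNA-seq of CD45- cells from the mouse thymus, the nonhematopoietic stroma that holds fibroblasts (FBs), thymic epithelial cells (TECs) and endothelial cells (ECs). Members were all genes whose mouse symbol is Col, digits, the letter a and digits, without pseudogenes or antisense genes. This gave 44 genes of the 53379 in the count table, and all 44 had counts and passed the filter on low counts. All animals were wild-type C57BL/6 mice, 2 months of age. Steady state was sampled with 4 libraries, and each of 3 times after a sublethal dose of total body irradiation (TBI), day 1, day 4 and day 7, with 3. The labels call the steady-state mice untreated, whereas column headers of the count table mark them as controls given phosphate-buffered saline (PBS), with a day and a replicate. They are named here by those headers, PBS day 1 replicate 2, PBS day 4 replicate 2, PBS day 7 replicate 1 and PBS day 7 replicate 2. The study's methods speak of the bulk replicates as biological, and whether each library came from 1 mouse or a pool is not given in the sources used here.

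Collagens are secreted or membrane-bound proteins of the extracellular matrix whose chains wind around each other into a rope-like helix. Fibrillar collagens such as types I and III form the fibers that give tissue its tensile strength and are made mainly by FBs. Network collagens such as type IV form the sheets of basement membranes under epithelia and endothelia. Fibril-associated collagens (FACITs) coat the fibers, and type VI forms beaded filaments between cells and fibers. In the thymus, FBs of the capsule and septa, the vessels and the TECs all contribute chains to this matrix.

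Libraries held between 15721866 and 52056896 counts (median 44078906), so that Col3a1, Col1a1, Col1a2, Col6a1 and Col6a2 each had at least 30084 counts in every library, while Col2a1, Col10a1 and Col11a1 were at 0 counts in at least 1 library. Values are CPM with library sizes scaled by TMM (normalised CPM), where CPM is a count divided by its library size in units of 1e6 reads. The listed markers of stromal cell types were detected in every condition. Summed over their lists, 7 FB markers ranged from 9699 to 25740 normalised CPM over the 13 libraries, 8 TEC markers from 671.5 to 3789, and 6 EC markers from 868.7 to 1391. The sum of 10 thymocyte markers, which the CD45- sort should remove, ranged from 214.6 to 682.7 at steady state, 102.2 to 133.2 at day 1, 19.58 to 32.17 at day 4 and 192.0 to 4439 at day 7. In bulk samples, fewer cells of a type cannot be told apart from less RNA per cell.

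Collagen transcripts were a large part of the stromal RNA. At steady state they took 2.13%, 11.8%, 3.66% and 7.39% of all counts in PBS day 1 replicate 2, PBS day 4 replicate 2, PBS day 7 replicate 1 and PBS day 7 replicate 2. After TBI the share was 2.94%, 8.69% and 4.94% at day 1, 5.58%, 4.98% and 4.48% at day 4, and 5.32%, 3.26% and 5.90% at day 7. The steady-state libraries spanned the values of all 3 time points, and the library with the highest share of all 13 was a steady-state library. In every library the member with the most counts was Col3a1, which encodes the chain of type III collagen, the fibrillar collagen of reticular fibers.

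Ordered by normalised CPM per kilobase of exons, the steady-state levels were led by Col3a1 with 3319 ± 2712 (SD, n = 4), then Col1a1 with 1413 ± 1793 and Col1a2 with 1152 ± 1154, the 2 chains of type I collagen. They were followed by Col6a1 with 578 ± 155 and Col6a2 with 283 ± 77.0, the core chains of type VI collagen. Col4a1, a chain of type IV collagen in nearly all basement membranes, had 167 ± 39.5, and Col14a1, a FACIT of type I fibers, had 148 ± 103. At the low end, Col11a2 had 0.108 ± 0.0797 and Col25a1 had 0.0315 ± 0.0183. The ranges of neighbours in this order mostly overlapped. Of the 43 neighbouring pairs, the ranges over the 4 libraries did not overlap only between Col6a1 (lowest 408) and Col6a2 (highest 369). This sets different libraries against each other and says nothing of the order within a library. Within each steady-state library, Col3a1 was above Col1a1, although their ranges overlapped. The same 4 genes, Col3a1, Col1a1, Col1a2 and Col6a1, led the order of mean levels at days 1, 4 and 7. The heatmap of all members shows these levels by class.

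**Figure D1:**
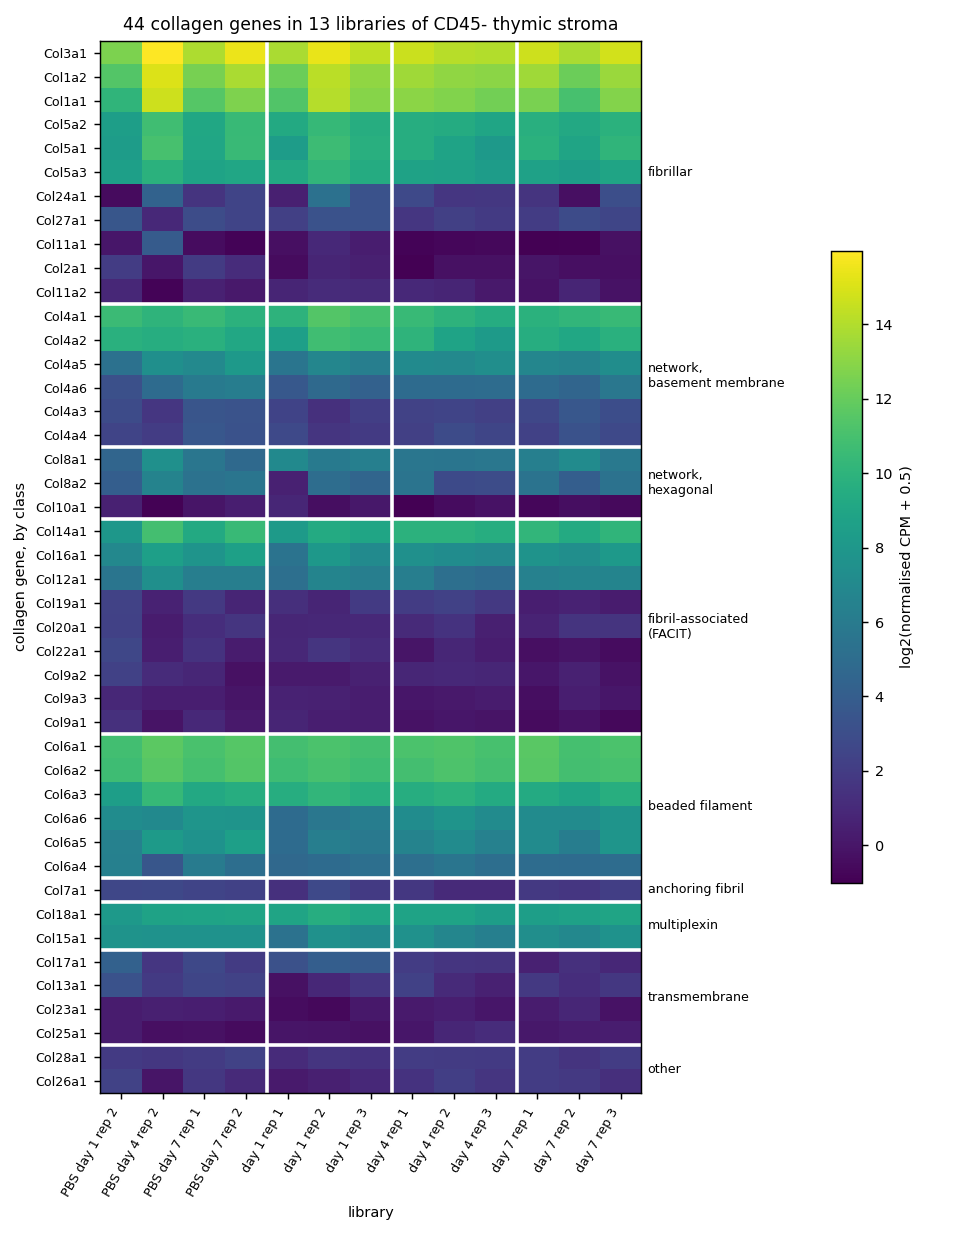
Heatmap of the 44 collagen genes (rows, grouped by class) in the 13 libraries (columns, conditions divided by white lines), colored by log2(normalised CPM + 0.5). The fibrillar genes Col3a1, Col1a2 and Col1a1 are the brightest rows, and their brightest column is the steady-state library PBS day 4 replicate 2.

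With 44 members tested, 1 gene differed between day 1 and steady state in edgeR's quasi-likelihood test (adjusted p of 0.05 or less over all 19984 genes), beside 2.35% of all genes tested. It was Col6a6, which was lower at day 1. No member differed at day 4 against steady state, where 0.290% of all genes did, or at day 7, where 0.00500% did. At an unadjusted p under 0.05 there were 6 members at day 1, 8 at day 4 and 7 at day 7, of which 1 at day 4 was higher and all others were lower. These were 13.6%, 18.2% and 15.9% of the members, beside 17.2%, 13.02% and 13.5% of all genes. DESeq2 called 3, 3 and 4 members, or 6.82%, 6.82% and 9.09%, beside 7.01%, 3.23% and 5.42% of all genes. Between time points, 1 member differed from day 1 to day 4 (1.43% of all genes), 2 from day 1 to day 7 (8.13%) and none from day 4 to day 7 (3.90%). From day 4 to day 7, 1 member had an unadjusted p under 0.05, beside 18.7% of all genes, and DESeq2 called 1, beside 9.61%. DESeq2 called 2 members from day 1 to day 4 (4.81% of all genes) and 5 from day 1 to day 7 (14.7%). The members past the threshold in edgeR were Col6a6 at both times and Col17a1 at day 7. Over all conditions together, the same 2 members passed the test, beside 6.66% of all genes. The shares of the members past the adjusted threshold in edgeR, at most 4.55% in any comparison, were of the order of the background or below it.

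Col6a6 was the member with the clearest difference over time. It encodes a chain of type VI collagen that can stand in for the chain of Col6a3, and lies at chr9:105687809-105828160 on the minus strand (GRCm38), next to Col6a5 and Col6a4 in the same orientation. At steady state it had 150.2, 134, 230.2 and 222 normalised CPM in PBS day 1 replicate 2, PBS day 4 replicate 2, PBS day 7 replicate 1 and PBS day 7 replicate 2. At day 1 it had 29.5, 51.2 and 71.8. At day 4 it had 155, 221 and 146, and at day 7 it had 148, 146 and 219.5. Each library of day 1 was below every other library, whereas those of days 4 and 7 overlapped steady state. Col6a6 fell by 1.86 ± 0.33 on the log2 scale (log2 fold change ± SE, n = 3 and 4, edgeR adjusted p = 0.00863) from steady state to day 1. It rose by 1.78 ± 0.34 from day 1 to day 4 (edgeR adjusted p = 0.0205) and by 1.75 ± 0.34 from day 1 to day 7 (edgeR adjusted p = 0.0111). Compared with steady state, its level differed by -0.08 ± 0.31 on the log2 scale at day 4 (edgeR adjusted p = 0.924) and -0.11 ± 0.31 at day 7 (edgeR adjusted p = 0.965).

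Limits of the Col6a6 result were as follows. In a fit of only the conditions compared, the fall at day 1 was -1.87 with an adjusted p of 0.0631. With libraries scaled to FB markers (Pdgfra, Pdgfrb, Dpt, Pi16 and Mfap5), it was -1.91 with an adjusted p of 0.0708. The rise from day 1 to day 4 did not pass in 9 of 24 alternatives, among them those without day 1 replicate 1, day 1 replicate 2, day 4 replicate 2 or day 4 replicate 3 (adjusted p = 0.063, 0.0944, 0.121 and 0.0603). The rise from day 1 to day 7 did not pass in 2 of 24, with FB marker scaling (adjusted p = 0.0689) and with the thymocyte score as a covariate (adjusted p = 0.134). The 7 FB markers summed to 10380 to 11000 normalised CPM at day 1, 15990 to 21190 at day 4 and 12650 to 19950 at day 7, beside 9699 to 25740 at steady state. Of these 7 genes, only Pdgfrb, a receptor of FBs and pericytes, differed at day 1 and was higher (1.68 ± 0.28, edgeR adjusted p = 0.00547), and the median log2 fold change of the list was -0.76. Column headers also end in tags of unknown meaning, whose first letters (k3, kk or other) divide the libraries into 3 families. Within tag families, Col6a6 differed by -2.89 (1 library each) and -1.61 (2 libraries each) on the log2 scale from steady state to day 1. The k3 family had 2 libraries at day 4, 2 at day 7 and 0 at day 1, so the rises cannot be fully told apart from tag family. Within families they were 1.34 to day 4 (1 and 2 libraries) and 2.88 to day 7 (1 library each). With the tag family as a covariate, the rise to day 4 did not pass.

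Col6a5, the neighbouring gene for another such chain of type VI collagen, had 87.5, 305, 202 and 380.0 normalised CPM in the steady-state libraries in the order above. At day 1 it had 29.7, 76.2 and 57.7, at day 4 97.4, 144 and 87.4, and at day 7 144, 71.7 and 232. All day 1 libraries were below all steady-state libraries, while days 4 and 7 overlapped steady state. The log2 fold change at day 1 was -2.16 ± 0.52, and its edgeR adjusted p of 0.0504 just missed the threshold, which it passed under 6 of 22 alternatives. Against steady state it was -1.15 ± 0.50 at day 4 (edgeR adjusted p = 0.364) and -0.71 ± 0.49 at day 7 (edgeR adjusted p = 0.645). The third gene of this cluster, Col6a4, had lower levels (11.2 to 84.2 normalised CPM at steady state and 26.3 to 36.4 at day 1) and did not pass the test in any comparison.

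The bases just upstream of the annotated start are printed from RefSeq (GRCm38.p6), 5′ to 3′ on the strand of the gene. They are shown for Col6a6 and Col17a1, the members past the threshold, for Col6a5, the neighbour of Col6a6 that missed it, and for Col3a1, the most abundant member. Only bases that lie upstream of both the RefSeq start and the start in the count table are given. Capitals mark matches to GGGCGG (the GC box, bound by Sp factors) or TATAAA (the TATA box) on either strand.
Col6a6 promoter, chr9:105828161-105828335, minus strand: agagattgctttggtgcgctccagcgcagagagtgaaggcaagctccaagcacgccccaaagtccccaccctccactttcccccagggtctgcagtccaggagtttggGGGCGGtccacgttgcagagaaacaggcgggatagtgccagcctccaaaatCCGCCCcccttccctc
Col6a5 promoter, chr9:105960644-105960893, minus strand: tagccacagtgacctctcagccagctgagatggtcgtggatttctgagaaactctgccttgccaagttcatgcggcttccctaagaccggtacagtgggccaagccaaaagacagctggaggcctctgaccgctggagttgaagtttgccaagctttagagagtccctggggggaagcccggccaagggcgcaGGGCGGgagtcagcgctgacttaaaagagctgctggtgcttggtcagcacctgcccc
Col17a1 promoter, chr19:47692095-47692292, minus strand: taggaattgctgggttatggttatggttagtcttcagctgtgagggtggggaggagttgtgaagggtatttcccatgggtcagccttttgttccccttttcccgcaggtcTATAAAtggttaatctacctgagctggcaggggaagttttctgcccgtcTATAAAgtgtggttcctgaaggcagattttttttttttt
Col3a1 promoter, chr1:45311288-45311537, plus strand: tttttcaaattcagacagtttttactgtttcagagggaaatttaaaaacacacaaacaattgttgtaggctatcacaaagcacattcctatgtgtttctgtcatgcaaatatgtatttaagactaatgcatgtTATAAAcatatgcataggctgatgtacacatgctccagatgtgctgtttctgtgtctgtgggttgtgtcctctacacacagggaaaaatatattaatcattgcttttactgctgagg
Over the 250 bases before each start, 38 windows of 35 members were searched on both strands. GGGCGG was in 22 of the 38 windows and in 32.7% of all 32851 windows, and TATAAA was in 5 of 38 and in 12.4%. CCAAT was in 13 of 38 windows and in 33.8% of all windows, and TGACTCA (bound by AP-1) in 1 of 38 and in 4.46%. Col6a6 and Col6a5 each had GGGCGG and no TATAAA in the bases printed, and Col17a1 and Col3a1 had TATAAA and no GGGCGG. Matches to letters are a description of these windows, not sites of binding.

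The core chains of type VI collagen gave no call. Col6a1 had 1788, 3299, 2176 and 2864 normalised CPM at steady state, 1926, 2269.8 and 1861 at day 1, 2301, 2517 and 2092 at day 4, and 3090.1, 1984 and 2317 at day 7. The conditions overlapped, with log2 fold changes from steady state of -0.33 ± 0.26 at day 1 (edgeR adjusted p = 0.551), -0.14 ± 0.26 at day 4 (edgeR adjusted p = 0.831) and -0.04 ± 0.26 at day 7 (edgeR adjusted p = 0.989). Col6a2 and Col6a3 did not pass the test in any comparison either. The plot by condition sets Col6a1 beside Col6a6, Col6a5 and 3 members of other classes.

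**Figure D2:**
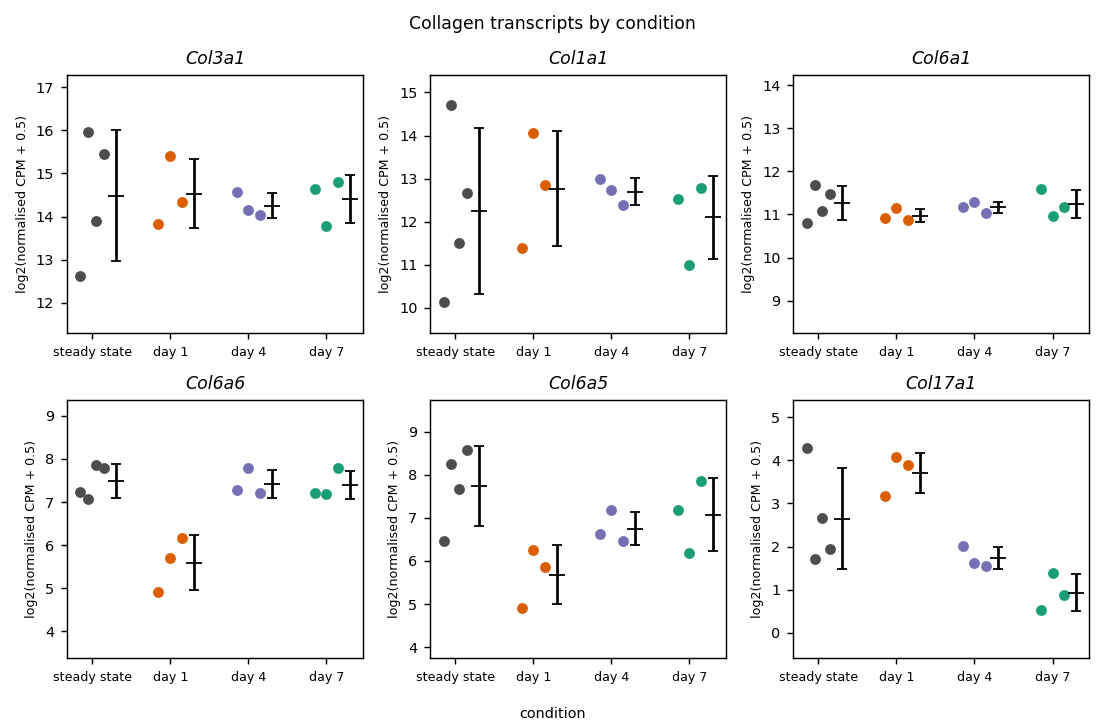
Points are libraries of 6 collagen genes by condition (4 at steady state, 3 at each day after TBI), as log2(normalised CPM + 0.5) with axes of equal span, and bars show mean ± SD. The day 1 libraries of Col6a6 lie below all others, Col17a1 is lowest at day 7, and Col3a1 and Col1a1 vary most at steady state.

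Col17a1 was the other member past the threshold. It encodes a transmembrane collagen of hemidesmosomes, which anchor basal epithelial cells to the basement membrane, and lies at chr19:47646344-47692094 on the minus strand. It had 19.1, 2.75, 5.79 and 3.34 normalised CPM at steady state. It had 8.54, 16.3 and 14.2 at day 1, 3.55, 2.58 and 2.43 at day 4, and 0.944, 2.11 and 1.33 at day 7. The day 7 libraries were below all others, and those of day 1 lay within the range of steady state. Col17a1 fell by 3.15 ± 0.67 on the log2 scale from day 1 to day 7 (edgeR adjusted p = 0.0148). Compared with steady state, it differed by 0.75 ± 0.57 at day 1 (edgeR adjusted p = 0.534), -1.45 ± 0.60 at day 4 (edgeR adjusted p = 0.348) and -2.41 ± 0.63 at day 7 (edgeR adjusted p = 0.124).

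The Col17a1 call did not pass in 4 of 24 alternatives, among them the tag family as a covariate (-2.30, adjusted p = 0.0503) and a fit without day 7 replicate 3 (-3.15, adjusted p = 0.0515). Within the kk family, with 1 library each, the log2 difference was -2.31. The 8 TEC markers summed to 1049 to 2130 normalised CPM at day 1 and 671.5 to 1242 at day 7 (median log2 fold change -0.57, none past the threshold from day 1 to day 7). All 10 thymocyte markers rose from day 1 to day 7, with a median of 4.30 on the log2 scale. With the thymocyte score as a covariate, Col17a1 had -4.29 with an adjusted p of 0.0771. What these populations add to the difference was not tested beyond that fit.

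The 11 fibrillar genes gave no call in any of the comparisons. Col1a1 had 1122, 26605, 2896 and 6459 normalised CPM at steady state, 2673, 16993 and 7409.9 at day 1, 8160.3, 6779.6 and 5334 at day 4, and 5892, 2049.5 and 7073 at day 7. Col1a2 had 2783, 34525, 5609 and 14360.0 at steady state, 4564, 18819 and 9205 at day 1, 12103, 9222 and 8319 at day 4, and 11793, 4508 and 10696 at day 7. Col3a1 had 6322, 63872, 15166 and 44964 at steady state, 14643, 43418 and 20839 at day 1, 24489, 18247 and 16693 at day 4, and 25496, 14052 and 28622 at day 7. For these genes the steady-state libraries reached both below and above every library after TBI. Col1a1 had log2 fold changes of -0.04 ± 0.87, -0.46 ± 0.87 and -0.89 ± 0.88 at days 1, 4 and 7 against steady state (edgeR adjusted p = 0.988, 0.832 and 0.804). Those of Col1a2 were -0.40 ± 0.71, -0.54 ± 0.72 and -0.67 ± 0.72 (edgeR adjusted p = 0.818, 0.750 and 0.831). Those of Col3a1 were -0.31 ± 0.64, -0.72 ± 0.65 and -0.52 ± 0.64 (edgeR adjusted p = 0.843, 0.619 and 0.868).

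Most of these directions depended on PBS day 4 replicate 2. Without it the log2 fold changes of Col1a1 were 1.37, 0.95 and 0.52 at days 1, 4 and 7, and those of Col1a2 were 0.52, 0.38 and 0.25. Those of Col3a1 were then 0.25, -0.16 and 0.036, so that of these 9 values only Col3a1 at day 4 kept its sign, and none passed the test. The same library had the highest steady-state level of 8 of the 11 fibrillar genes, and PBS day 1 replicate 2 had the lowest of 7. The summed FB markers had the same order as the collagen share in these libraries. The sums were 9699 and 25740 normalised CPM in PBS day 1 replicate 2 and PBS day 4 replicate 2. They were 12090 and 24850 in PBS day 7 replicate 1 and PBS day 7 replicate 2. Dcn was the largest part (6140, 16066, 7643 and 16961). Mfap5 kept the order of the share (248, 1659, 329 and 1178), whereas Pdgfra did not (677, 659, 884 and 756). At day 1 the order did not hold, as replicate 2 had the highest share (8.69%) and the lowest FB sum (10380). Summed TEC markers ran the other way at steady state, with 2551, 757.8, 1832 and 830.4 in the same order of libraries. The part of the FB and TEC content in the spread was not tested.

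Minor fibrillar genes had few counts. Col11a1, a fibrillar chain best known from cartilage, had 0.504, 13.9, 0.237 and 0.0484 normalised CPM at steady state, 0.311, 1.44 and 0.796 at day 1, 0.0645, 0.105 and 0.130 at day 4, and 0, 0.0410 and 0.352 at day 7. Its log2 fold changes of -2.14 ± 1.45, -5.07 ± 1.76 and -4.87 ± 1.72 at days 1, 4 and 7 did not pass (edgeR adjusted p = 0.480, 0.272 and 0.208), and without PBS day 4 replicate 2, the library with 13.9, they were 1.57, -1.36 and -1.16. Col2a1, the main collagen of cartilage, had 3.46, 0.525, 3.29 and 1.69 at steady state, 0.198, 1.21 and 0.901 at day 1, 0, 0.334 and 0.352 at day 4, and 0.472, 0.307 and 0.325 at day 7. The libraries of days 4 and 7 were all below those of steady state, with log2 fold changes of -3.11 ± 0.85 (edgeR adjusted p = 0.169) and -2.60 ± 0.82 (edgeR adjusted p = 0.161). Col24a1 had 0.219, 20.0, 2.41 and 4.99 at steady state, 0.905, 39.8 and 9.22 at day 1, 6.26, 2.72 and 2.92 at day 4, and 2.44, 0.328 and 7.999 at day 7. It had the highest fitted log2 fold change of all members at day 1, 1.26 ± 1.25 (edgeR adjusted p = 0.641), which rested on day 1 replicate 2 and was -0.44 without that library. Col11a2 had 1.34, 0.05001, 0.947 and 0.629 at steady state, 1.19, 1.58 and 1.51 at day 1, 1.42, 1.16 and 0.611 at day 4, and 0.390, 1.19 and 0.407 at day 7. Its log2 fold changes were 0.93 ± 0.71 at day 1 (edgeR adjusted p = 0.532) and 0.49 ± 0.72 at day 4 (edgeR adjusted p = 0.774), with overlapping libraries.

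The network collagens gave no call either. Col4a1 had 1524, 1038, 1474 and 949 normalised CPM at steady state, 1013, 2767 and 1987 at day 1, 1386, 1021 and 737 at day 4, and 929.8, 1169 and 1366 at day 7. The libraries overlapped, with log2 fold changes from steady state of 0.63 ± 0.34 at day 1 (edgeR adjusted p = 0.369), -0.25 ± 0.34 at day 4 (edgeR adjusted p = 0.756) and -0.11 ± 0.34 at day 7 (edgeR adjusted p = 0.969). Col4a2, its partner, had 0.60 ± 0.47 at day 1, whereas the chains with a more restricted distribution, Col4a3, Col4a4, Col4a5 and Col4a6, had negative values at day 1 that ranged down to -1.18 (Col4a6), none past the threshold. Of the hexagonal network collagens, Col8a1, a chain of type VIII collagen found under endothelia, had 22.6, 185.4, 49.7 and 27.0 normalised CPM at steady state, 131, 59.1 and 78.5 at day 1, 50.1, 48.9 and 53.1 at day 4, and 79.0, 142 and 57.2 at day 7. Its log2 fold change at day 7 was 0.38 ± 0.61 (edgeR adjusted p = 0.919), and without day 7 replicate 2 it was -0.04.

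The 9 FACIT genes also held no call. Col22a1, found at tissue junctions, had 5.72, 0.825, 2.26 and 0.726 normalised CPM at steady state, 1.39, 2.55 and 1.76 at day 1, 0.452, 1.2996 and 0.759 at day 4, and 0.328, 0.410 and 0.244 at day 7. All day 7 libraries were below all others, and the log2 fold change from steady state was -1.48 ± 0.67 at day 4 (edgeR adjusted p = 0.375; -0.48 without PBS day 1 replicate 2) and -2.86 ± 0.72 at day 7 (edgeR adjusted p = 0.118). From day 1 to day 7 it was -2.51 ± 0.74 (edgeR adjusted p = 0.0535). Col19a1, a FACIT of basement membrane zones, had 4.496, 1.08, 3.01 and 1.16 at steady state, 1.98, 1.21 and 3.14 at day 1, 3.61, 4.41 and 3.04 at day 4, and 0.820, 1.07 and 0.732 at day 7. Day 7 was again below all other conditions, with log2 fold changes of 0.59 ± 0.49 at day 4 (edgeR adjusted p = 0.592) and -1.48 ± 0.52 at day 7 (edgeR adjusted p = 0.208) against steady state and of -2.07 ± 0.56 from day 4 to day 7 (edgeR adjusted p = 0.0572). The most abundant FACIT, Col14a1, had 255 to 1860.2 normalised CPM at steady state and 303 to 667 at day 1, with a log2 fold change of -1.07 ± 0.53 (edgeR adjusted p = 0.322).

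Of the remaining members named for the size of their fitted change, Col13a1, a transmembrane collagen of the neuromuscular junction, had 9.14, 3.25, 5.42 and 4.503 normalised CPM at steady state, 0.339, 1.39 and 2.76 at day 1, 4.45, 1.55 and 1.00 at day 4, and 3.06, 1.82 and 2.85 at day 7. The day 1 libraries were below all steady-state libraries (-1.89 ± 0.67, edgeR adjusted p = 0.173), and DESeq2 called this difference. Col25a1, a transmembrane collagen with a role in motor innervation, had 0.746, 0.325, 0.366 and 0.194 at steady state, 0.481, 0.418 and 0.335 at day 1, 0.516, 1.28 and 1.74 at day 4, and 0.574, 0.717 and 0.759 at day 7. It had the highest fitted log2 fold change of all members at day 4, 1.52 ± 0.49 (edgeR adjusted p = 0.239), with overlapping libraries, and 0.71 ± 0.49 at day 7 (edgeR adjusted p = 0.637). Col26a1 had 4.69, 0.475, 2.84 and 1.55 at steady state, 0.650, 0.882 and 1.42 at day 1, 2.32, 3.92 and 2.52 at day 4, and 3.57, 3.01 and 1.93 at day 7. Its value at day 7 was 0.24 ± 0.58 (edgeR adjusted p = 0.956), and without PBS day 4 replicate 2 it was -0.10.

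Set side by side by class, most members had negative log2 fold changes. Of all 44 members, 32 were below 0 at day 1 (median -0.40), 38 at day 4 (median -0.52) and 37 at day 7 (median -0.33), whereas the medians over all 19984 genes were -0.10, -0.13 and 0.00. These 3 comparisons share the steady-state libraries, and the share of all genes below 0 was not counted. Of the steady-state libraries, PBS day 1 replicate 2 was highest for 18 of the 44 members and lowest for 19. PBS day 4 replicate 2 was highest for 17 and lowest for 16. The medians of the 11 fibrillar genes were -0.14, -0.72 and -0.52 at days 1, 4 and 7. Those of the 6 basement membrane network genes were -0.93, -0.40 and -0.14, those of the 9 FACITs were -0.40, -0.59 and -0.67, and those of the 6 beaded filament genes were -0.54, -0.17 and -0.17. The 3 hexagonal network genes had 0.33, -1.23 and -0.58. The fibrillar medians depended on the scaling and on 1 library. They were 0.03, -0.40 and -0.39 with libraries scaled to FB markers, and 0.52, -0.19 and 0.04 without PBS day 4 replicate 2. The hexagonal median at day 1 was -0.04 without that library. At day 7, the fibrillar and hexagonal medians were 0.24 and 0.35 with the thymocyte score as a covariate, and the FACIT median at day 4 was 0.01. The basement membrane and beaded filament medians stayed negative at days 1, 4 and 7 under both scalings, with that covariate and without PBS day 4 replicate 2. The basement membrane median at day 1 does not describe its most abundant members. Col4a1 and Col4a2 (167 and 116 normalised CPM per kilobase at steady state) were above 0 at day 1. Those below 0, Col4a3 to Col4a6, had mean levels of 22.8 or less. No class was tested as a group. The plot of fold changes shows every member with its error.

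**Figure D3:**
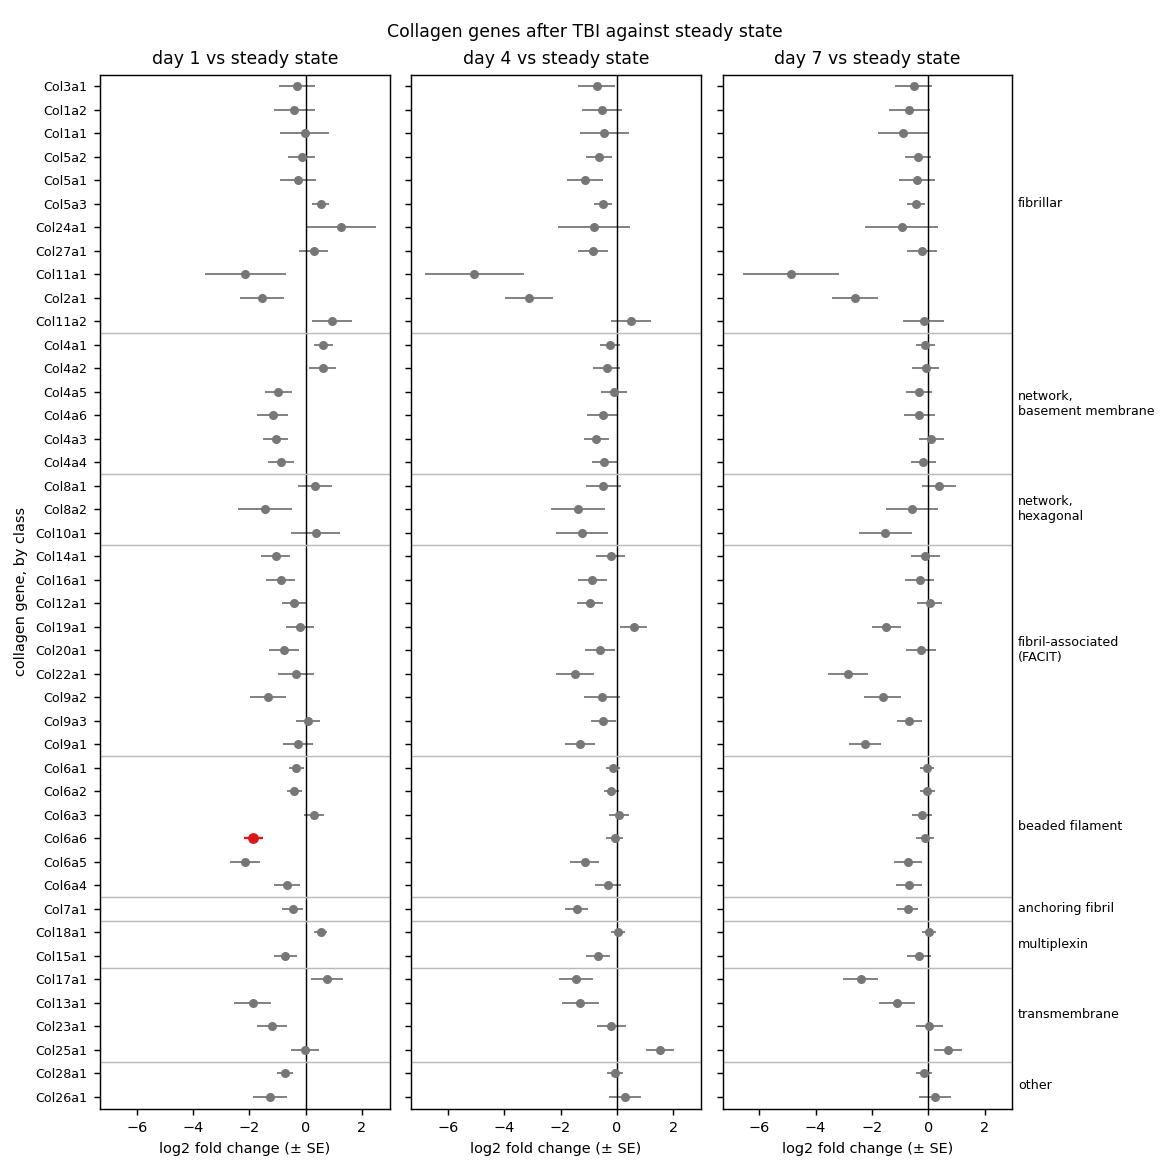
Log2 fold changes ± SE of the 44 collagen genes (rows, grouped by class) at each day after TBI, compared with steady state. Col6a6 at day 1 (-1.86), in red, is the only value past an adjusted p of 0.05, and the widest bars belong to fibrillar genes such as Col11a1 and Col24a1.

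The classes also differed in how much libraries of the same condition varied. The within-condition SD of log2(normalised CPM + 0.5), pooled over the 4 conditions, had a median of 1.00 for the 11 fibrillar genes, 0.890 for the hexagonal and 0.664 for the basement membrane network genes, 0.637 for the FACITs and 0.472 for the beaded filament genes. The median over all genes tested was 0.369, and it was 0.355 over the 1996 genes with a mean of at least 100 normalised CPM. Of those 1996 genes, 99.0% had a smaller SD than Col1a1, 96.4% than Col1a2 and 94.5% than Col3a1. In contrast, only 34.5% had a smaller SD than Col6a1 and 38.0% than Col18a1, the multiplexin that carries endostatin. Abundant members of the classes overlapped, however. The share was 61.0% for the fibrillar Col5a3, beside 90.0% for the FACIT Col14a1. It was 88.5% for the beaded filament gene Col6a5 and 83.1% for the multiplexin Col15a1. At steady state, the highest Col1a1 level was 23.7 times the lowest, and the highest Col6a1 level was 1.84 times the lowest. The added 0.5 narrows the spread of genes near or under 1 normalised CPM. An example is the FACIT Col9a3, with a mean of 0.866 at steady state and an SD of 0.293. Class medians therefore depend on level as well as spread. These are descriptions of the libraries, with no test.

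**Figure D4:**
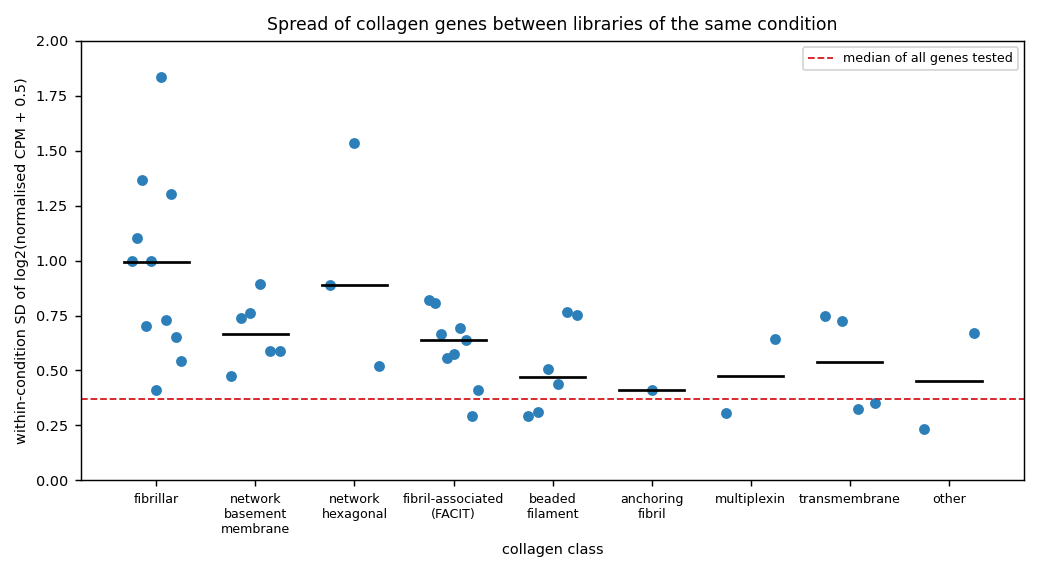
Within-condition SD of log2(normalised CPM + 0.5) of each collagen gene (points) by class, with the class median (black bar) and the median of all genes tested (dashed line, 0.369). Fibrillar genes reach 1.83 (Col24a1), while Col6a1 (0.291) and Col6a2 (0.309) lie below the dashed line.

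Pairs of chains of the same collagen type kept different degrees of proportion. The ratio of Col6a1 to Col6a2, in normalised CPM per kilobase, stayed between 1.97 and 2.25 in the 13 libraries (median 2.10, SD of the log2 ratio 0.0591), which was tighter than the spread of either gene (SD of log2 0.279 and 0.309). The ratio of Col1a1 to Col1a2 ranged from 0.763 to 1.71 (SD of the log2 ratio 0.363), beside SDs of 1.22 and 0.959 for the genes. Col4a1 and Col4a2, which lie head to head on chromosome 8, had ratios from 1.11 to 2.38 (SD 0.346). The highest, 2.38, 1.975, 2.155 and 1.843, were in day 1 replicate 1, day 4 replicates 2 and 3, and day 7 replicate 2. In all other libraries the ratio was 1.11 to 1.54. In the same order of libraries, Col5a1 to Col5a2 had its lowest ratios, 0.578, 0.737, 0.633 and 0.902, beside 1.019 to 1.336 elsewhere. What sets these libraries apart was not tested. The head-to-head pairs Col4a3 and Col4a4 on chromosome 1 and Col4a5 and Col4a6 on chromosome X had ratios from 0.779 to 1.46 and from 2.49 to 6.90. Col6a5 to Col6a6 ranged from 0.480 to 2.21 (SD 0.663). Col8a1 to Col8a2, chains of type VIII collagen, had the widest range of the pairs examined, 0.492 to 120 (SD 2.04). The ratio of 120 was in day 1 replicate 1, where Col8a2 had 0.962 normalised CPM. Ratios of 7.48, 6.66 and 6.43 were in day 7 replicate 2 and day 4 replicates 2 and 3. In all other libraries the ratio was 0.492 to 3.01, so its highest values were in the same libraries as those of Col4a1 to Col4a2. The ratio of Col6a3 to Col6a1 was 0.146 to 0.188 at day 1 and 0.0751 to 0.144 at steady state, a difference singled out after its values were seen and not tested. The plot of ratios shows these pairs by library, without Col8a1 to Col8a2 and Col6a3 to Col6a1.

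**Figure D5:**
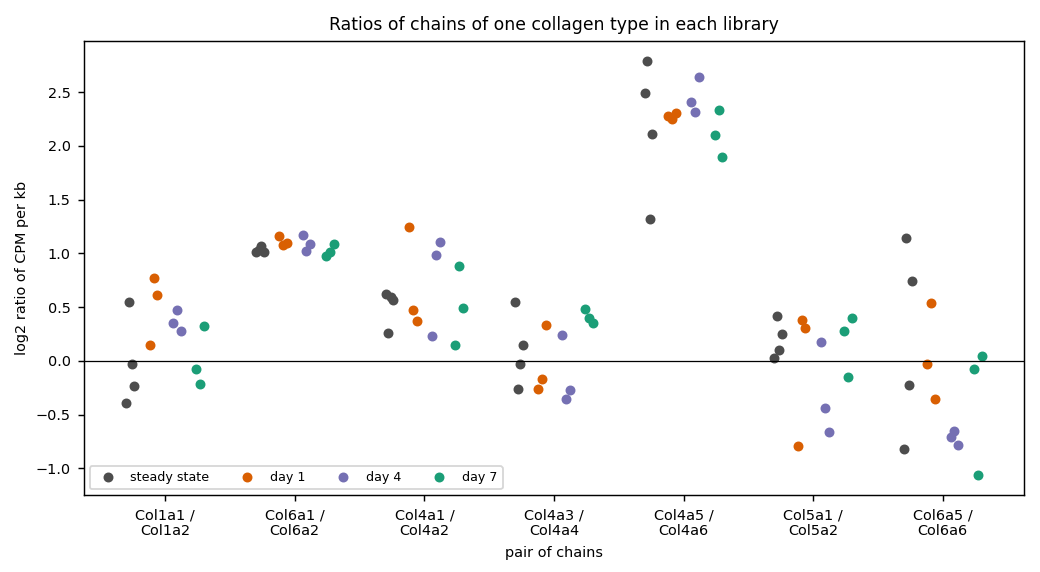
Log2 ratio of normalised CPM per kilobase for 7 pairs of chains in each of the 13 libraries, colored by condition. Points of Col6a1 over Col6a2 lie in a narrow band at a ratio of 1.97 to 2.25, while those of Col6a5 over Col6a6 spread from 0.480 to 2.21.

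Of 43 other genes of collagen synthesis, cross-linking and sensing, 1 rose and 1 fell at day 1 and none differed from steady state at day 4 or 7. The share at day 1 was 4.65% of the 43, beside 2.35% of all genes. At days 4 and 7, 0.290% and 0.00500% of all genes differed. By edgeR at an unadjusted p under 0.05 there were 10, 7 and 2 such genes at days 1, 4 and 7, and DESeq2 called 6, 1 and 1. The unadjusted shares were 23.3%, 16.3% and 4.65% of the 43, beside 17.2%, 13.02% and 13.5% of all genes, and the DESeq2 shares were 14.0%, 2.33% and 2.33%, beside 7.01%, 3.23% and 5.42%. Loxl4, a lysyl oxidase that cross-links collagen, had 16.0, 20.4, 23.9 and 26.2 normalised CPM at steady state and 45.1, 47.5 and 44.3 at day 1. Every day 1 library was higher, and the log2 fold change was 1.08 ± 0.21 (edgeR adjusted p = 0.0153). Pcolce2, which enhances the removal of procollagen C-propeptides, had 94.9, 101, 106 and 133 at steady state and 15.6, 27.6 and 55.4 at day 1. It fell by 1.72 ± 0.39 (edgeR adjusted p = 0.0359) and rose again by 2.02 ± 0.41 from day 1 to day 7 (edgeR adjusted p = 0.0126), when it had 183, 129 and 87.6. The prolyl and lysyl hydroxylases, the chaperone Serpinh1, the procollagen proteinases and the integrin and discoidin receptors gave no call against steady state. The integrin chain Itga11 came nearest, with -1.54 at day 1 (edgeR adjusted p = 0.0513).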

How the data were processed

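Bulk RNA-seq of CD45- thymic stroma was analysed in 13 libraries. Per the labels, the authors used Trimmomatic 0.38 for trimming, STAR 2.7.0e for alignment to GRCm38.p5 and featureCounts 1.6.3 for counting over genes (GENCODE M12). The deposited counts are whole reads per gene without normalization. Counting is stated to have used default settings, which for featureCounts ignore strand, so reads of overlapping antisense genes cannot be told apart. Symbols and GC content came from GENCODE M21 (53274 of 53379 identifiers had a symbol), and promoters came from RefSeq GRCm38.p6. Col4a3bp, which is no collagen, did not match the rule.

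All 13 libraries entered 1 fit in edgeR 4.0.16 (R 4.3.3) with a term for condition, TMM normalization, filterByExpr by condition (minimum count 10) and the quasi-likelihood F-test. The common dispersion came to 0.177. A gene was called changed at a Benjamini-Hochberg adjusted p of 0.05 or less over 19984 genes. SEs are the size of the log2 fold change divided by the square root of F. On simulated data for day 1 against steady state (19984 genes, 200 changed), 99.5% of the changed genes were recovered and 4.785% of calls were false. The simulation gave all genes the same dispersion, lower than the common dispersion of these data, and made only large changes in genes with ample counts. Its recovery is therefore no measure of the power for collagen genes with a wide spread. Spreads and plots used log2(CPM + 0.5).

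The members and gene lists were chosen with earlier results of these data known. Genes named with values in every library were the 5 markers given with the family (Col1a1, Col1a2, Col3a1, Col4a1 and Col6a1), members past the threshold, and the 3 with the largest fitted rise and the 3 with the largest fall at days 1, 4 and 7 against steady state. Alternatives were DESeq2 1.42.0, RLE normalization, scaling to FB markers, no filter, at least 10 counts in every library, only the conditions compared, the thymocyte score as a covariate, a replicate block, and fits that dropped 1 library at a time. The tag family as a covariate, removal of the GC trend (lowess span 0.3) and a fit of the libraries after TBI only were added after seeing the data. Steady-state column headers lack the label's replicate numbers and were used as a group. Tables were made in Python 3.11.15 (pandas 2.3.3, numpy 2.4.6) and plots with matplotlib 3.10.9.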

Additional observations from a re-analysis of the deposited data

Results flagged for a closer look

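Among the 4 steady-state libraries, PBS day 4 replicate 2 stood far from the others for 2 of the 44 members by Dixon's ratio, where chance gives about 2.2 of 44. Col11a1 had 13.9 normalised CPM in it and 0.0484 to 0.504 in the others (ratio 0.967, above the 95% critical value). Col8a1 had 185.4 normalised CPM in it and 22.6 to 49.7 in the others (ratio 0.834).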

How the results depend on the processing

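Counts of changed collagen genes were small and moved with several choices, as did counts over all genes, and the cause was not tested for any of these. At day 1 against steady state, the count of 1 became 3 with DESeq2, 2 with no filter, with at least 10 counts in every library, with the thymocyte score and with the tag family as covariates, and 0 with FB marker scaling and in a fit of only the conditions compared. Over all genes, 2.35% became 7.01%, 1.47%, 3.57%, 2.32%, 5.33%, 0.911% and 1.22% in these settings. At day 4 against steady state, 0 became 3 with DESeq2 (0.290% to 3.23% of all genes). At day 7 against steady state, 0 became 4 with DESeq2 and 2 with no filter (0.00500% to 5.42% and 1.66% of all genes). From day 1 to day 4, 1 became 2 with DESeq2 and with the libraries after TBI only, and 0 with FB marker scaling, the thymocyte score and the tag family (1.43% of all genes to 4.81%, 1.56%, 0.365%, 1.04% and 0.816%). From day 1 to day 7, 2 became 5 with DESeq2 and with the libraries after TBI only, and 0 with FB marker scaling and the thymocyte score (8.13% of all genes to 14.7%, 10.7%, 2.23% and 1.45%). From day 4 to day 7, 0 became 1 (Col19a1) with DESeq2, RLE, no filter, only the conditions compared, the libraries after TBI only and the GC trend removed (3.90% of all genes to 9.61%, 4.20%, 3.34%, 2.16%, 4.99% and 4.69%). Over all conditions, 2 became 0 with FB marker scaling and 6 with no filter. Of all genes, 1330 of 19984 became 590 of 19984 and 2252 of 37877, so that the share over all genes did not rise with no filter.

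Leaving out 1 library at a time gave 1 to 3 calls at day 1 against steady state, 0 at day 4, 0 to 1 at day 7, 0 to 2 from day 1 to day 4, 1 to 5 from day 1 to day 7, 0 to 1 from day 4 to day 7, and 0 to 6 over all conditions. Of all genes, these fits called 1.22% to 4.03%, 0.0918% to 1.09% and 0.00% to 2.99% at days 1, 4 and 7. Between time points they called 0.420% to 1.83% from day 1 to day 4 and 2.28% to 10.3% from day 1 to day 7. From day 4 to day 7 it was 0.0725% to 7.26%. The 5 from day 1 to day 7 and the 6 over all conditions came without PBS day 4 replicate 2. That fit called 10.3% of all genes and 2030 of 19791 genes, beside 8.13% and 1330 of 19984 in the main fit. Without PBS day 1 replicate 2 the counts were 3 at day 1 against steady state, 2 from day 1 to day 4, 4 from day 1 to day 7 and 5 over all conditions. The matching values for all genes were 2.40%, 1.57%, 10.3% and 1761 of 19653. Over all conditions, the count was 0 without day 1 replicate 2 and 1 without any other library after TBI except day 4 replicate 1. Of all genes, 892 of 20874 were called without day 1 replicate 2. Without those other libraries it was from 677 of 20521 to 1937 of 20769.

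Whether the replicate numbers of the labels pair the libraries after TBI could not be decided. Mean correlations of same-numbered libraries were -0.474, -0.14 and 0.0757 for days 1 and 4, 1 and 7, and 4 and 7. Those for other numbers were 0.205, 0.0752 and -0.0423. Both were of deviations from condition means, which sum to 0 within a condition, so that each mean depends on the other. With the number as a replicate block in a fit of the 9 libraries after TBI, the counts were 0, 3 and 0 for the same pairs of days. They were 2, 5 and 1 without the block. Shares of all genes fell too, being 0.292%, 3.34% and 0.00% with the block and 1.56%, 10.7% and 4.99% without it. The steady-state columns carry no label number, so no block could be set there.

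Of 809 values of single genes under the alternatives, 743 kept their direction and side of the threshold, 17 no longer passed, 14 newly passed and 35 changed sign. All 35 were of values that did not pass the test. Col11a1 at day 1 was 0.12 with the tag family. Col26a1 at day 7 was -0.12 with FB marker scaling. Col1a1 at day 1 was 0.0001 with DESeq2 and with RLE, 0.40 with FB marker scaling and 0.52 with the tag family. Col1a2 at day 1 was 0.012 with the tag family, and Col3a1 was 0.023 with FB marker scaling and 0.043 with the tag family. With the thymocyte score, day 7 values were 0.43 for Col1a1, 0.41 for Col1a2, 0.32 for Col3a1 and 0.27 for Col6a1, and Col4a1 at day 4 was 0.15. Col4a1 at day 7 was 0.31 with the tag family. When 1 library was left out, the ranges at day 1 were -2.72 to 1.57 for Col11a1, -0.44 to 2.73 for Col24a1, -0.88 to 1.37 for Col1a1, -1.06 to 0.52 for Col1a2 and -0.88 to 0.25 for Col3a1. At day 4 they were -0.74 to 0.95 for Col1a1, -0.79 to 0.38 for Col1a2 and -0.20 to 0.017 for Col6a1. At day 7 they were -1.26 to 0.52 for Col1a1, -1.01 to 0.25 for Col1a2, -0.87 to 0.036 for Col3a1, -0.23 to 0.025 for Col4a1, -0.24 to 0.13 for Col6a1, -0.037 to 1.48 for Col8a1 and -0.10 to 0.80 for Col26a1. Levels under 1 CPM, as for Col2a1, Col11a1 and Col25a1, rested on few counts.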
